A study of Mus musculus with 8 samples.

Results

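The mitochondrial carrier family (solute carrier family 25, SLC25) was followed across B16F10 mouse melanoma cells with altered cyclophilin D (CypD). Its members were taken as every gene of the expression table with a symbol made of Slc25a and a number, except *Slc25a3*, *Slc25a4* and *Slc25a5*. This gave 44 genes of the 55414 in the table. The 3 genes left out encode the phosphate carrier (*Slc25a3*) and ADP/ATP translocases (*Slc25a4* and *Slc25a5*). They are often discussed together with the permeability transition pore, and are given only beside the family. *Slc25a31*, an ADP/ATP carrier of testis, stayed among the 44.

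Carriers of this family are encoded in the nucleus and sit mostly in the inner mitochondrial membrane. Each one moves its own substrates, such as carboxylates, amino acids, nucleotides, cofactors or iron, between the cytosol and the matrix, often as an exchange. CypD, the product of *Ppif*, is a prolyl isomerase of the matrix that promotes opening of the mitochondrial permeability transition pore (mPTP).

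The RNA-seq experiment asked how CypD and oxygen alter gene expression in melanoma cells, and held 8 libraries in 4 groups of 2. WT and CypD KO (*Ppif* knockout) cells were kept at 21% O2. At 1% O2 the Control cells had a stable integration of empty pcDNA, and the CypD OE cells had one of pcDNA with *Ppif*. All cells spent 24 h in their oxygen concentration. The knockout was made with CRISPR/Cas9 and puromycin selection, and the Control and CypD OE lines were resistant clones grown out in G418. Whether the 2 libraries of a group came from separate cultures is not stated, so p-values measure the spread between these libraries, which may be technical. No vector-carrying cells at 21% O2 and no cells without vector at 1% O2 were among the samples. Oxygen and vector or clone therefore cannot be told apart between Control and WT, and CypD KO and Control cells differ in oxygen, vector and *Ppif* at once. All values are TPM, transcript levels that are scaled for transcript length and sum to 1000000 in every library.

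The targeted gene *Ppif* had levels of 50.7 and 49.99 TPM in WT, 10.4 and 12.1 in CypD KO, 44.6 and 42.3 in Control and 50.3 and 49.3 in the libraries labelled CypD OE. CypD KO was far below WT, and the rise of 0.19 (log2) from Control to CypD OE missed the threshold (limma adjusted p = 0.0794). The CypD OE group is therefore named below by its library label. *Vegfa*, a gene that many cells raise when oxygen falls, was at 13.98 and 12.6 TPM in WT, 76.5 and 77.9 in CypD KO, 58.8 and 58.3 in Control and 14.9 and 15.1 in the libraries labelled CypD OE. The libraries labelled CypD OE at 1% O2 were thus near WT, and CypD KO libraries at 21% O2 were above Control at 1% O2. All 8 of 8 melanocyte markers were detected, and keratinocyte markers were at 0. The melanocyte markers summed to 15699 to 15792 TPM in WT, 12457 to 12610 in CypD KO, 20489 to 21031 in Control and 13608 to 13781 in the libraries labelled CypD OE. In CypD KO against WT, limma called 1 higher and 6 lower (12.5% and 75%, beside 30.1% and 18.4% of all genes tested). The higher one was *Tyr*, at 37.4 and 41.3 TPM in WT and 167 and 147 in CypD KO. In Control against WT, 7 were higher and 0 lower (87.5% higher, beside 12.1%). In CypD OE against Control, 1 was higher, *Sox10*, and 5 were lower (12.5% and 62.5%, beside 19% and 18.3%). Of 5 leukocyte markers only *Lyz2* reached 1 TPM, in CypD KO (1.85 and 1.8 TPM). The 5 fibroblast markers summed to 34.2 and 37.2 TPM in CypD KO against 15.6 and 17.7 TPM in WT, and 2 of them were tested. *Postn* was higher in CypD KO (34.8 and 31.2 TPM against 8.04 and 8.07 TPM in WT), *Col1a2* was lower (1.09 and 2.17 TPM against 9.03 and 6.87 TPM, a log2 fold change of −1.79, limma adjusted p = 0.00176), and *Dcn* was at 0 in every library. The part of these marker differences in the carrier results was not tested. Relative depth was similar, since a single fragment at a fixed transcript length was worth 0.082 to 0.097 TPM in the 8 libraries.

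The family was broadly expressed. Of the 44 carriers, 36 passed the filter of 1 TPM in 2 or more of the 8 libraries and were tested, and 8 did not. *Slc25a41*, *Slc25a48* and *Slc25a54* were listed at 0 in all 8 libraries, and *Slc25a34*, *Slc25a18*, *Slc25a2*, *Slc25a31* and *Slc25a21* stayed below 1 TPM. The 10 highest carriers held between 65.6% and 68.1% of the summed family TPM in each library. Their order by mean over the libraries was *Slc25a39*, *Slc25a13*, *Slc25a11*, *Slc25a36*, *Slc25a10*, *Slc25a51*, *Slc25a46*, *Slc25a1*, *Slc25a17* and *Slc25a44*, from 133 TPM for the first to 25.9 TPM for the last. *Slc25a39* and *Slc25a13* changed places between groups, with *Slc25a39* far ahead in CypD KO and *Slc25a13* ahead in the libraries labelled CypD OE. Between ranks 3 and 9 the libraries of neighbouring genes overlapped across the series.

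**Figure D1:**
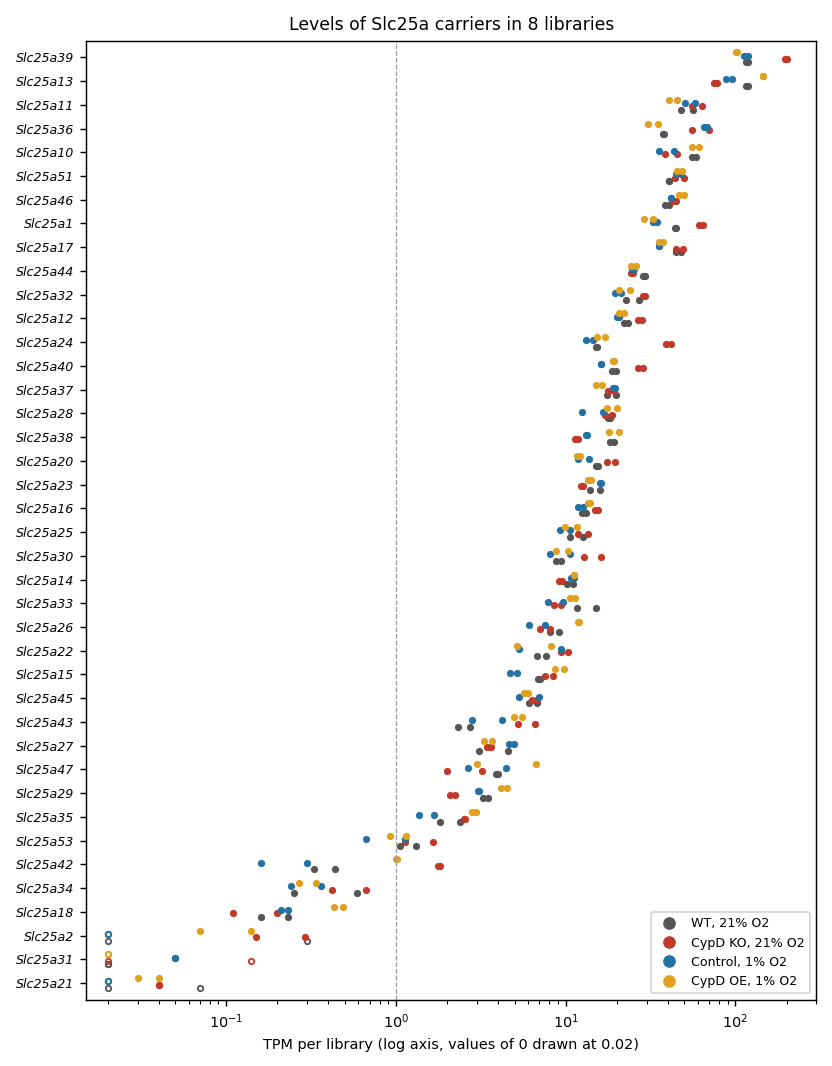
Levels of 40 carriers above 0 in at least 1 library, as TPM on a log axis with 1 point per library and colour by group (values of 0 are drawn at 0.02, and a group with a 0 has open points). The dashed line marks 1 TPM. *Slc25a39* and *Slc25a13* lie above 70 TPM in every library, and 5 carriers lie below 1 TPM throughout.

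The summed level of the 44 carriers was 863 and 883 TPM in WT, 1032 and 980 TPM in CypD KO, and 801 and 826 TPM in Control. It was 864 and 855 TPM in CypD OE. CypD KO libraries were highest, Control libraries were lowest, and these groups did not overlap with any other. A sum of this kind follows its few most abundant members. The mean of the glutathione carrier *Slc25a39* was 199 TPM in CypD KO and 117 TPM in WT, and that of the aspartate/glutamate carrier *Slc25a13* was 76.4 and 117 TPM. In bulk RNA, fewer cells making a transcript and less of it per cell cannot be told apart.

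**Figure D2:**
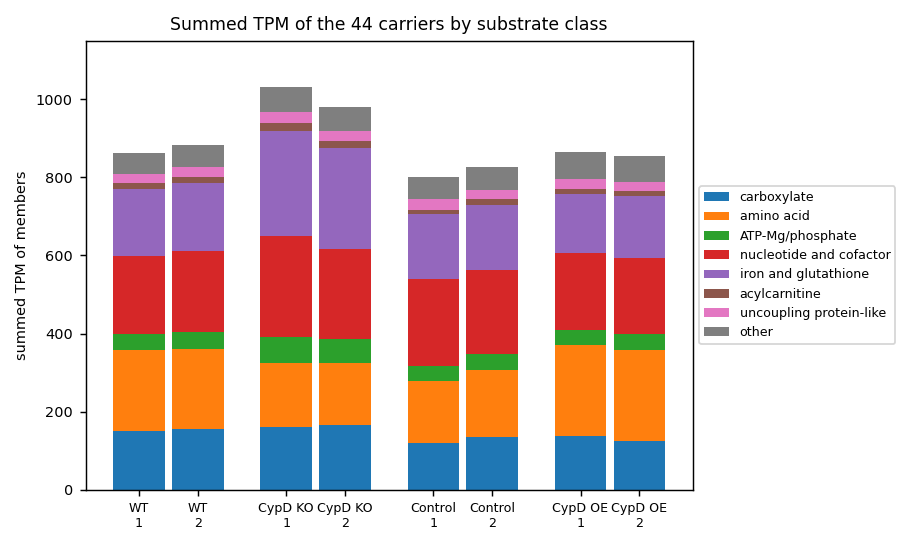
Summed TPM of the 44 carriers in each of the 8 libraries, stacked by substrate class. The bars of the CypD KO libraries reach 1032 and 980 TPM, above the other 6 libraries, and the iron and glutathione class is widest there.

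Each comparison was tested with limma on log2(TPM + 1) over 13526 genes, and a gene was called at a Benjamini-Hochberg adjusted p under 0.05. All fold changes are on this log2(TPM + 1) scale, which understates the change of low genes. In CypD KO against WT, 11 carriers were called higher and 7 lower of the 36 tested, where 30.1% of all genes tested were called higher and 18.4% lower. These member shares, 30.6% and 19.4%, were near the background. With libraries rescaled by median-of-ratios factors, 9 carriers were higher and 8 lower, and the higher share of all called genes moved from 62.1% to 49.4%. In the libraries labelled CypD OE against Control, 10 carriers were called higher and 3 lower, beside 19% and 18.3% of all genes. In Control against WT, 1 carrier was called higher and 9 lower, beside 12.1% and 12.1% of all genes. The family median was −0.15 there and the median of all genes 0.01. In CypD OE against WT, 5 were higher and 5 lower, beside 14% and 13.7%. In CypD KO against Control, 14 were higher and 3 lower, beside 27.4% and 16.5%, and rescaling gave 11 and 4 while the higher share of all called genes moved from 62.4% to 50.1%. The comparisons share libraries, so their counts do not bear on each other independently.

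Between CypD KO and WT, 7 of the 11 higher and 2 of the 7 lower calls held in every alternative setting that could be fitted and with each library left out in turn. The settings were a pseudocount of 0.1, no filter, a filter of 5 TPM, rescaling, a replicate block, no trend, and only the 4 libraries of a comparison. *Slc25a42* did not pass the filter of 5 TPM and has no value there. The 7 were *Slc25a1*, *Slc25a24*, *Slc25a36*, *Slc25a39*, *Slc25a40*, *Slc25a42* and *Slc25a43*, and the 2 were *Slc25a13* and *Slc25a38*. In the libraries labelled CypD OE against Control, 4 of 10 higher calls (*Slc25a13*, *Slc25a15*, *Slc25a26*, *Slc25a38*) and 1 of 3 lower calls (*Slc25a36*) held. Between Control and WT, the higher call of *Slc25a36* held, as did 3 of the 9 lower calls (*Slc25a1*, *Slc25a13*, *Slc25a38*). Between CypD OE and WT, 1 of the 5 higher calls (*Slc25a13*) and 1 of the 5 lower calls (*Slc25a1*) held. In CypD KO against Control, 9 of the 14 higher calls and 1 of the 3 lower calls (*Slc25a13*) held. No call changed sign in any setting. Altogether 26 carriers were called in at least 1 of the 5 comparisons and 10 in none. The same share was not counted over all genes, so these counts are not read as particular to the family.

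**Figure D3:**
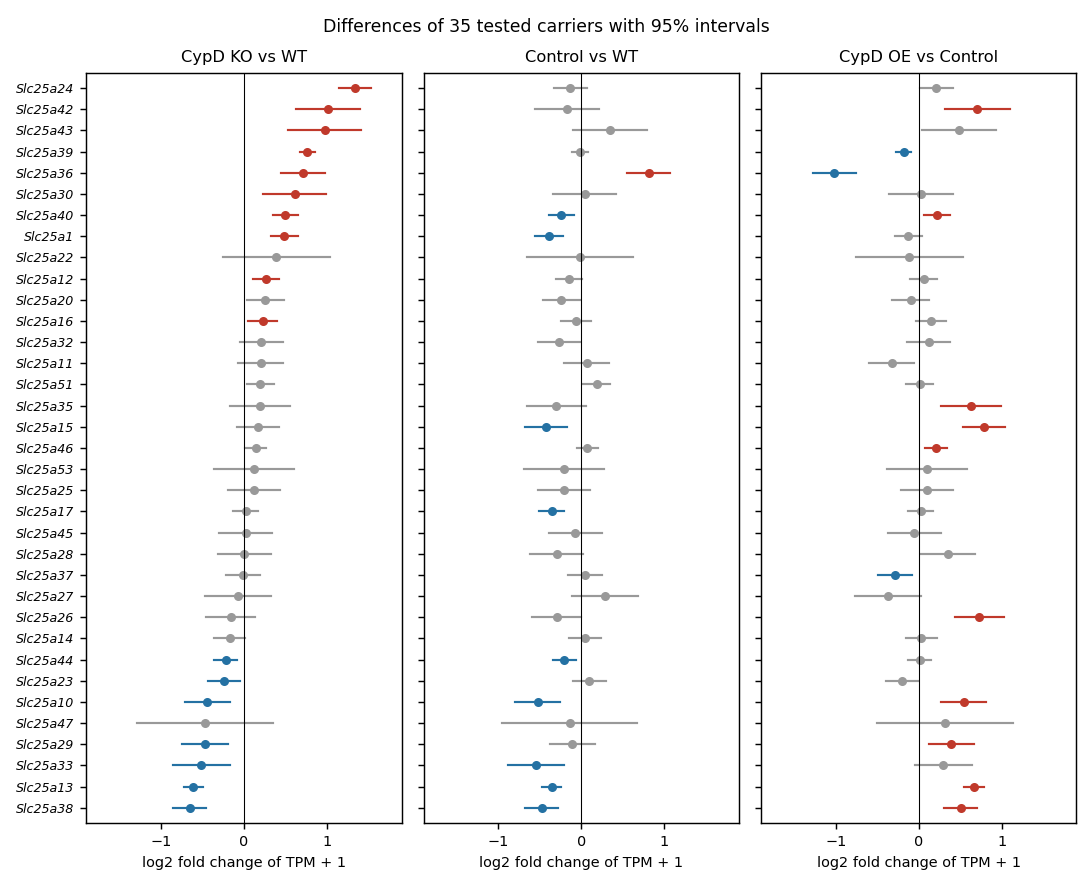
Log2 fold change of TPM + 1 for 35 of the 36 tested carriers in 3 comparisons, with 95% confidence intervals from limma. Red points were called higher, blue points lower and grey points neither, with 10 and 7, 1 and 9, and 10 and 3 carriers called from left to right.

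Among carriers of nucleotides and cofactors, CypD KO and Control were called in the same direction against WT for both carriers of pyrimidine nucleotides. *Slc25a36* (ENSMUSG00000032449, chromosome 9, 96950238 to 96993267, GRCm39) encodes an importer of pyrimidine nucleotides. It was at 37.5 and 37.8 TPM in WT, 69.7 and 55.4 in CypD KO, 67.9 and 65.7 in Control and 34.8 and 30.4 in the libraries labelled CypD OE. CypD KO and Control were both high and overlapped each other, while WT and CypD OE were both low and lay apart from them. The log2 fold change was 0.71 (SE 0.11, limma adjusted p = 0.00197) in CypD KO against WT and 0.81 (SE 0.11, limma adjusted p = 0.00311) in Control against WT. It was −1.02 (SE 0.11, limma adjusted p = 0.000613) in CypD OE against Control, so the level was lower in the libraries labelled CypD OE. The difference between CypD KO and Control was −0.10 (limma adjusted p = 0.494) with a 95% interval of −0.36 to 0.16. CypD OE against WT gave −0.21 (limma adjusted p = 0.214). A lncRNA on the opposite strand, *Gm16185*, overlaps 3285 bases of the locus and was at 2.94 to 8.24 TPM, and whether reads were counted by strand is not given in the sources used here.

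*Slc25a33* (ENSMUSG00000028982, chromosome 4, 149828491 to 149858751), the other carrier of pyrimidine nucleotides, ran the opposite way. It was at 15.04 and 11.6 TPM in WT, 8.55 and 9.32 in CypD KO, 7.87 and 9.65 in Control and 11.3 and 10.6 in the libraries labelled CypD OE. WT was highest, CypD KO and Control were lowest and overlapped, and CypD OE lay between. limma gave a log2 fold change of −0.52 (SE 0.14, limma adjusted p = 0.0232) in CypD KO and −0.55 (SE 0.14, limma adjusted p = 0.0351) in Control, each against WT. Against Control, CypD OE differed by 0.30 (limma adjusted p = 0.152). The first call was lost without WT replicate 1 or either CypD KO replicate. It was also lost with no filter or with only the 4 libraries compared. The second call was lost without WT replicate 1, Control replicate 1, either CypD KO replicate or either CypD OE replicate. It was also lost with no filter, with a replicate block or with only the 4 libraries compared.

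The start regions of 33 of the 44 carriers were found in RefSeq (GRCm38.p6), as windows of 250 bases before to 50 after the start. They were searched on both strands for ACGTG and GCGTG, forms of the core of the element bound by hypoxia-inducible factors. CACGTG, which holds ACGTG on both strands, was searched for as well. Of the 33 carriers, 11 held ACGTG against 21.9% of all genes, 19 held GCGTG against 35.4%, and 7 held CACGTG against 8.11%. All genes here were 26742 genes with 32544 windows, expressed or not, and the 33 carriers had 43 windows. The carriers and this background were not matched, so these numbers are not read as particular to the family. CACGTG stood before *Slc25a1*, *Slc25a13*, *Slc25a15*, *Slc25a33* and *Slc25a36*. It also stood before *Slc25a14*, called in no comparison without rescaling, and *Slc25a31*, which was not tested. With rescaled libraries *Slc25a14* was called lower in CypD KO. The difference was −0.27 against WT (limma adjusted p = 0.0278) and −0.29 against Control (limma adjusted p = 0.0207). *Slc25a10* and *Slc25a38*, low in CypD KO and Control like *Slc25a13*, held neither core. *Slc25a24*, high in CypD KO alone, held neither core either, while *Slc25a39* and *Slc25a40*, also high there, held GCGTG without ACGTG. Of these, 4 genes were chosen for display after values and motifs were seen, as the pyrimidine nucleotide pair, *Slc25a13* and *Slc25a24*. Their 250 bases before the start are given 5′ to 3′ on the gene's strand, with matches to ACGTG or GCGTG on either strand in capitals. They match GRCm39 once each, at chr9:96993095-96993344 and chr4:149858725-149858974 for the pyrimidine nucleotide carriers, chr6:6217174-6217423 for *Slc25a13* (these 3 on the minus strand) and chr3:109030215-109030464 for *Slc25a24* (plus strand).
Slc25a36: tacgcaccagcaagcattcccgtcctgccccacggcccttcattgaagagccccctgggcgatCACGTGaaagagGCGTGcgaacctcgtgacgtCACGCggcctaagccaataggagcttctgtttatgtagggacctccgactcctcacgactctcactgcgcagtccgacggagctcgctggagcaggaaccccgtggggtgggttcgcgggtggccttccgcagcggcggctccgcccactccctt
Slc25a33: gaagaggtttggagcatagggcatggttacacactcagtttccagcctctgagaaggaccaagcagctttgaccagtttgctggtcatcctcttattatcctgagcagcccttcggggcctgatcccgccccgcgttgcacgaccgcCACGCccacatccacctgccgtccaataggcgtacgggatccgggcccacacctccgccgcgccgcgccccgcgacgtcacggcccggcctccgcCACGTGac
Slc25a13: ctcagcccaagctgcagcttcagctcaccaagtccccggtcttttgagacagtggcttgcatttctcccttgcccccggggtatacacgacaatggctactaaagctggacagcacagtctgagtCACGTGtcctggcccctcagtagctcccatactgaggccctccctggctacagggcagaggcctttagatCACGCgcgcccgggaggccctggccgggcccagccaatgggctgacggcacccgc
Slc25a24: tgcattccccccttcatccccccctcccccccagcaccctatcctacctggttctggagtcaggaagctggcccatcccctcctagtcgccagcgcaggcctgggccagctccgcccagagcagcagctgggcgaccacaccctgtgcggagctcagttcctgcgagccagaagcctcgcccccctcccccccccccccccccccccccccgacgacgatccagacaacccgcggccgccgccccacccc
In *Slc25a36* the CACGTG starts 187 bases before the start, in *Slc25a33* 8 bases and in *Slc25a13* 125 bases. The same 6 letters thus stand before carriers that were higher and carriers that were lower in CypD KO and Control. A match of letters is a description of the window, and binding by any factor was not measured here.

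**Figure D4:**
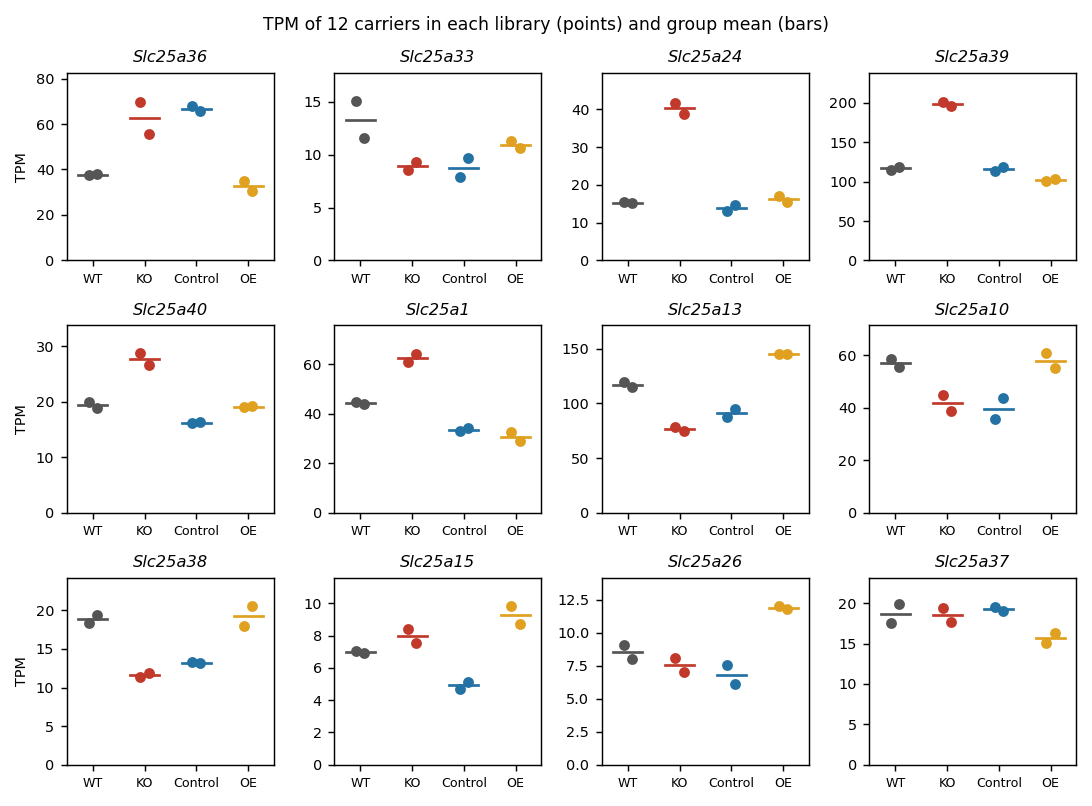
TPM of 12 carriers in each library (points) with group means (bars), on axes that start at 0. *Slc25a36* is high in CypD KO (KO) and Control, *Slc25a24*, *Slc25a39* and *Slc25a40* are high in CypD KO alone, and *Slc25a13*, *Slc25a10* and *Slc25a38* are low in CypD KO and Control.

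Among the cofactor carriers, *Slc25a42* (ENSMUSG00000002346, chromosome 8, 70636988 to 70664966) encodes a carrier of coenzyme A (CoA). It was at 0.33 and 0.44 TPM in WT, 1.77 and 1.81 in CypD KO, 0.3 and 0.16 in Control and 1.01 and 1 in the libraries labelled CypD OE. It was a low gene whose WT and Control libraries reached at most 0.44 TPM, and CypD KO was highest. On the log2 scale the difference was 1.01 (SE 0.16, limma adjusted p = 0.00236) in CypD KO against WT and 0.71 (SE 0.16, limma adjusted p = 0.0146) in CypD OE against Control. The latter call was lost without Control replicate 2, CypD OE replicate 1 or CypD OE replicate 2 (limma adjusted p up to 0.0693). *Tmem161a*, on the opposite strand at 10.6 to 45.7 TPM, overlaps 70 bases of *Slc25a42*.

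*Slc25a16*, linked to CoA, was at 12.5 and 13.2 TPM in WT and 14.9 and 15.5 in CypD KO. Its call (0.23, limma adjusted p = 0.0427) was lost with any 1 of the 8 libraries left out. It was also lost under rescaling, with no filter, with a replicate block and with only the 4 libraries compared. *Slc25a26*, the importer of S-adenosylmethionine, was at 9.08 and 8.03 TPM in WT, 8.05 and 7.03 in CypD KO, 7.52 and 6.09 in Control and 12.02 and 11.8 in the libraries labelled CypD OE. The libraries labelled CypD OE were above all others, by 0.73 (SE 0.12, limma adjusted p = 0.00411) against Control. *Slc25a17*, a peroxisomal carrier of CoA and FAD, was at 44.5 and 47.5 TPM in WT, 48.9 and 44.5 in CypD KO, 35.6 and 35.7 in Control and 37.3 and 35.3 in the libraries labelled CypD OE. Both groups at 1% O2 lay below both groups at 21% O2. Its log2 fold change was −0.36 (SE 0.06, limma adjusted p = 0.00859) in Control against WT and −0.33 (limma adjusted p = 0.00979) in CypD OE against WT, and it was 0.38 (limma adjusted p = 0.0032) in CypD KO against Control. The call in Control was lost without WT replicate 2 (limma adjusted p up to 0.0509), and that in CypD OE without WT replicate 2 or CypD OE replicate 2 (limma adjusted p up to 0.0596).

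*Slc25a51*, the importer of NAD+, was not called in any comparison. It was at 40.8 and 40.7 TPM in WT, 49.7 and 44.2 in CypD KO, 47.96 and 44.96 in Control and 45.4 and 48.3 in the libraries labelled CypD OE, with WT lowest. Its difference from WT was 0.20 (limma adjusted p = 0.0548) in CypD KO and 0.20 (limma adjusted p = 0.0804) in CypD OE. *Slc25a32*, a carrier of FAD and folate, was called in CypD KO against Control alone, at 0.48 (limma adjusted p = 0.0111), from 29.1 and 28.4 TPM and 21.3 and 19.6 TPM, and this was lost without CypD KO replicate 1 or Control replicate 2 (limma adjusted p up to 0.062). Of the 10 carriers of this class, 9 were tested. Between CypD KO and WT, 4 were higher and 1 lower, and in CypD OE against Control, 2 were higher and 1 lower. These were 44.4% and 11.1% of the class, beside 30.1% and 18.4% of all genes, and 22.2% and 11.1%, beside 19% and 18.3%.

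The carriers of glutathione were raised in CypD KO, and the carriers of iron were not called there. *Slc25a39* (ENSMUSG00000018677, chromosome 11, 102292585 to 102299602), a mitochondrial glutathione importer, was at 115 and 119 TPM in WT, 202 and 196 in CypD KO, 113 and 119 in Control and 101 and 103 in the libraries labelled CypD OE. The CypD KO libraries stood far above the rest, WT and Control overlapped, and CypD OE was lowest. The log2 fold change was 0.76 (SE 0.04, limma adjusted p = 1.54e-05) in CypD KO against WT, −0.01 (limma adjusted p = 0.822) in Control against WT and 0.78 (SE 0.04, limma adjusted p = 1.73e-05) in CypD KO against Control. In CypD OE against Control it was −0.18 (SE 0.04, limma adjusted p = 0.0109), a call lost without Control replicate 2 or CypD OE replicate 1 (limma adjusted p up to 0.0586). *Rundc3a*, on the opposite strand at 0.84 to 2.67 TPM, overlaps 814 bases of *Slc25a39*.

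*Slc25a40* (ENSMUSG00000054099, chromosome 5, 8472804 to 8504839), its paralog, was at 19.9 and 18.8 TPM in WT, 28.7 and 26.7 in CypD KO, 16.2 and 16.2 in Control and 18.9 and 19.2 in the libraries labelled CypD OE. CypD KO was highest and Control lowest. On the log2 scale the difference was 0.50 (SE 0.06, limma adjusted p = 0.000854) in CypD KO against WT and 0.74 (SE 0.06, limma adjusted p = 0.000164) against Control. Smaller calls were made in Control against WT (−0.24, limma adjusted p = 0.0374) and in CypD OE against Control (0.22, limma adjusted p = 0.0333). The former call was lost with any 1 of the WT, Control and CypD OE libraries left out. It was also lost with no filter, with a replicate block or with only the 4 libraries compared. The latter call was lost with any 1 of the Control and CypD OE libraries left out, and with only the 4 libraries compared.

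The mitoferrins *Slc25a37* and *Slc25a28* bring iron into the matrix. *Slc25a37* was at 17.5 and 19.9 TPM in WT, 19.4 and 17.7 in CypD KO, 19.5 and 19.1 in Control and 15.02 and 16.3 in the libraries labelled CypD OE. The CypD OE libraries were lowest, and the other 3 groups overlapped. The difference in CypD OE against Control was −0.28 (SE 0.09, limma adjusted p = 0.0408). This call was lost with any 1 of the CypD KO, Control and CypD OE libraries left out. It was also lost with no filter, with a replicate block or with only the 4 libraries compared. In CypD KO against WT the difference was −0.01 (limma adjusted p = 0.93), with a 95% interval of −0.22 to 0.20. *Slc25a28* was at 18.2 and 17.6 TPM in WT, 18.9 and 17.1 in CypD KO, 16.6 and 12.5 in Control and 17.5 and 19.96 in the libraries labelled CypD OE, and was called in no comparison. Its difference in CypD KO against WT was 0.00 (limma adjusted p = 0.993), with a 95% interval of −0.32 to 0.32.

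Carboxylate carriers diverged from each other in CypD KO. *Slc25a1* (ENSMUSG00000003528, chromosome 16, 17743075 to 17746245), the citrate carrier that exports citrate for lipid synthesis, was at 44.5 and 44.1 TPM in WT, 60.7 and 64.03 in CypD KO, 32.8 and 34.3 in Control and 32.7 and 28.8 in the libraries labelled CypD OE. CypD KO was above WT, and both groups at 1% O2 were below WT. Its log2 fold change was 0.48 (SE 0.07, limma adjusted p = 0.00131) in CypD KO, −0.39 (SE 0.07, limma adjusted p = 0.00844) in Control and −0.52 (SE 0.07, limma adjusted p = 0.00236) in CypD OE, each against WT. CypD KO and Control differed by 0.87 (SE 0.07, limma adjusted p = 0.000106).

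*Slc25a10* (ENSMUSG00000025792, chromosome 11, 120382359 to 120391985), the dicarboxylate carrier that exchanges malate and succinate for phosphate, was at 58.7 and 55.7 TPM in WT, 45.02 and 38.6 in CypD KO, 35.5 and 43.6 in Control and 60.8 and 55.1 in the libraries labelled CypD OE. WT and CypD OE were high and overlapped, and CypD KO and Control were low and overlapped. limma gave a log2 fold change of −0.45 (SE 0.11, limma adjusted p = 0.0162) in CypD KO against WT, −0.53 (SE 0.11, limma adjusted p = 0.0175) in Control against WT and 0.55 (SE 0.11, limma adjusted p = 0.00965) in CypD OE against Control. The first call was lost without WT replicate 1 or CypD KO replicate 2 (limma adjusted p up to 0.0955). The second was lost without WT replicate 1, WT replicate 2 or Control replicate 1 (limma adjusted p up to 0.0848), and with no filter or with only the 4 libraries compared. The third was lost without CypD OE replicate 1 (limma adjusted p up to 0.0606). *Slc25a11*, the oxoglutarate/malate carrier, was at 47.6 and 56.2 TPM in WT, 55.4 and 63.8 in CypD KO, 50.4 and 57.95 in Control and 45.2 and 40.8 in the libraries labelled CypD OE. It was called in no comparison, and CypD OE against Control, where the libraries did not overlap, gave −0.32 (limma adjusted p = 0.0629). *Slc25a21*, the oxodicarboxylate carrier, was at most at 0.07 TPM in any library and was not tested.

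Of 9 amino acid carriers 7 were tested. Between CypD KO and WT, 1 was higher and 4 lower, which is 14.3% and 57.1%, beside 30.1% and 18.4% of all genes. Between Control and WT, limma called 0 higher and 4 lower, or 57.1% lower beside 12.1% of all genes. In CypD OE against Control, it called 4 higher and 0 lower, or 57.1% higher beside 19% of all genes. In each of these comparisons the same counts were reached at an unadjusted p under 0.05. The class medians were −0.22, −0.21 and 0.39 in this order, beside 0.09, 0.01 and 0.00 for all genes. Against WT, CypD OE had 2 higher and 1 lower, beside 14% and 13.7% of all genes, with a class median of 0.03.

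*Slc25a13* (ENSMUSG00000015112, chromosome 6, 6040252 to 6217294) encodes citrin, an aspartate/glutamate carrier of the malate-aspartate shuttle. It was at 119 and 115 TPM in WT, 78.2 and 74.7 in CypD KO, 87.4 and 94.9 in Control and 145 and 146 in the libraries labelled CypD OE. The 4 groups did not overlap, with CypD OE highest, then WT, Control and CypD KO. The log2 fold change was −0.61 (SE 0.05, limma adjusted p = 0.000104) in CypD KO against WT, −0.36 (SE 0.05, limma adjusted p = 0.00319) in Control against WT and 0.67 (SE 0.05, limma adjusted p = 0.000123) in CypD OE against Control. CypD OE was above WT by 0.31 (limma adjusted p = 0.00491). CypD KO was also below Control, with a difference of −0.25 (limma adjusted p = 0.00621).

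*Slc25a12*, aralar, the other aspartate/glutamate carrier, was at 23.3 and 22.1 TPM in WT, 28.3 and 26.5 in CypD KO, 20.01 and 20.7 in Control and 21.96 and 20.5 in the libraries labelled CypD OE. CypD KO was highest, where *Slc25a13* was lowest. Its log2 fold change was 0.26 (SE 0.07, limma adjusted p = 0.0159) against WT, a call lost without WT replicate 2 or CypD KO replicate 1 (limma adjusted p up to 0.0886) and under rescaling. Against Control it was 0.41 (limma adjusted p = 0.00267).

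*Slc25a38* (ENSMUSG00000032519, chromosome 9, 119939387 to 119955157), the glycine carrier used in heme synthesis, was at 18.3 and 19.3 TPM in WT, 11.4 and 11.8 in CypD KO, 13.3 and 13.2 in Control and 17.98 and 20.6 in the libraries labelled CypD OE. CypD KO and Control were below WT and CypD OE, which overlapped each other. Its log2 fold change was −0.65 (SE 0.08, limma adjusted p = 0.00078) in CypD KO against WT, −0.48 (SE 0.08, limma adjusted p = 0.00799) in Control against WT and 0.51 (SE 0.08, limma adjusted p = 0.00359) in CypD OE against Control. CypD OE differed from WT by 0.03 (limma adjusted p = 0.814), with a 95% interval of −0.17 to 0.23.

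*Slc25a15* (ENSMUSG00000031482, chromosome 8, 22865516 to 22889423), the ornithine carrier of the urea cycle, was at 7.06 and 6.89 TPM in WT, 8.41 and 7.51 in CypD KO, 4.72 and 5.14 in Control and 9.82 and 8.69 in the libraries labelled CypD OE. Control was lowest and CypD OE highest. limma gave a log2 fold change of −0.43 (SE 0.11, limma adjusted p = 0.0277) in Control against WT and 0.79 (SE 0.11, limma adjusted p = 0.00152) in CypD OE against Control. CypD KO lay above Control by 0.59 (limma adjusted p = 0.00387) and did not pass the test against WT (0.17, limma adjusted p = 0.236). The call in Control against WT was lost without WT replicate 1, WT replicate 2, Control replicate 1 or Control replicate 2 (limma adjusted p up to 0.117), and with no filter or with only the 4 libraries compared.

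*Slc25a29*, a carrier of basic amino acids, was at 3.27 and 3.48 TPM in WT, 2.08 and 2.22 in CypD KO, 3.09 and 3.03 in Control and 4.15 and 4.53 in the libraries labelled CypD OE. It was lowest in CypD KO and highest in CypD OE. The calls were −0.47 (limma adjusted p = 0.0136) in CypD KO against WT and 0.39 (limma adjusted p = 0.0351) in CypD OE against Control. The first was lost without WT replicate 2 or CypD KO replicate 1. The second was lost without CypD KO replicate 2, either Control replicate or either CypD OE replicate. It was also lost with no filter, with a replicate block or with only the 4 libraries compared. *Slc25a29* and *Slc25a47* overlap in 230 bases on opposite strands. *Slc25a44*, the carrier of branched-chain amino acids, was at 28.5 and 29.4 TPM in WT against 24.3 to 26.1 TPM in the other 6 libraries. Its log2 fold change was −0.22 (limma adjusted p = 0.0182) in CypD KO and −0.21 (limma adjusted p = 0.0431) in Control, each against WT. The first call was lost without WT replicate 2 or either CypD KO replicate. The second call was lost with any 1 of the WT, CypD KO and Control libraries left out. It was also lost with no filter, with a replicate block, without a trend or with only the 4 libraries compared. *Slc25a22*, a glutamate carrier, was called in no comparison, and its Control libraries alone were at 5.33 and 9.41 TPM. *Slc25a18*, the other glutamate carrier, and *Slc25a2*, an ornithine carrier, reached at most 0.49 TPM.

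The carriers that bind calcium through EF-hands outside the membrane are *Slc25a12*, *Slc25a13* and the ATP-Mg/phosphate carriers *Slc25a23*, *Slc25a24* and *Slc25a25*. *Slc25a24* (ENSMUSG00000040322, chromosome 3, 109030317 to 109075773) was at 15.4 and 15.2 TPM in WT, 41.6 and 38.8 in CypD KO, 13.2 and 14.6 in Control and 17.1 and 15.4 in the libraries labelled CypD OE. The CypD KO libraries were far above the other 6, which lay close together. On the log2 scale the difference was 1.34 (SE 0.08, limma adjusted p = 3.27e-05) against WT and 1.47 (SE 0.08, limma adjusted p = 2.58e-05) against Control, the largest of the 36 carriers tested in each of these comparisons at a pseudocount of 1. At a pseudocount of 0.1 *Slc25a42* differed more, and its ratio of mean TPM was 4.65 against WT and 7.78 against Control, where that of *Slc25a24* was 2.63 and 2.90. In Control against WT it was −0.13 (limma adjusted p = 0.287), and in CypD OE against Control 0.21 (limma adjusted p = 0.085).

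*Slc25a23* was at 13.9 and 16.02 TPM in WT, 12.6 and 12.3 in CypD KO, 16.1 and 15.9 in Control and 13.6 and 14.1 in the libraries labelled CypD OE. CypD KO was lowest, with a log2 fold change of −0.24 (limma adjusted p = 0.0467) against WT and −0.34 (limma adjusted p = 0.0149) against Control. The first call was lost with any 1 library left out except WT replicate 1. It was also lost with no filter, with a replicate block or with only the 4 libraries compared. The second call was lost with any 1 of the CypD KO and Control libraries left out. *Slc25a25* was at 10.6 and 12.7 TPM in WT, 13.6 and 11.9 in CypD KO, 10.6 and 9.26 in Control and 9.84 and 11.7 in the libraries labelled CypD OE. It was called in no comparison. In CypD KO the ATP-Mg/phosphate carriers thus split, with 1 higher, 1 lower and 1 not called. The summed level of the 5 EF-hand carriers was 181 and 183 TPM in WT and between 164 and 174 TPM in CypD KO. It was between 147 and 155 TPM in Control and 207 TPM in both libraries labelled CypD OE. *Slc25a41*, which lacks EF-hands, neighbours *Slc25a23* on chromosome 17 and was at 0 throughout.

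*Slc25a20*, which carries carnitine and acylcarnitine for fatty acid oxidation, was at 15.1 and 15.4 TPM in WT, 19.5 and 17.4 in CypD KO, 11.9 and 13.7 in Control and 12.2 and 11.6 in the libraries labelled CypD OE. CypD KO was highest and both groups at 1% O2 were lowest. CypD KO differed from Control by 0.50 (SE 0.09, limma adjusted p = 0.00504), and against WT the difference was 0.26 (limma adjusted p = 0.0595). CypD OE was below WT, with a difference of −0.34 (limma adjusted p = 0.038). This call was lost without CypD KO replicate 1, either WT replicate or either CypD OE replicate. It was also lost with no filter, with a replicate block or with only the 4 libraries compared. Among carriers that resemble uncoupling proteins, *Slc25a30* was at 8.76 and 9.35 TPM in WT, 16.1 and 12.8 in CypD KO, 10.7 and 8.13 in Control and 10.4 and 8.77 in the libraries labelled CypD OE. It was higher in CypD KO by 0.61 (limma adjusted p = 0.0181), a call lost without WT replicate 1, WT replicate 2 or CypD KO replicate 1 (limma adjusted p up to 0.106). *Slc25a14* (9.11 to 11.2 TPM) and *Slc25a27* (3.07 to 4.97 TPM) were called in no comparison. Under rescaling *Slc25a14* was called lower in CypD KO against WT and against Control.

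Among the remaining carriers, *Slc25a43* (ENSMUSG00000037636, chromosome X, 36007219 to 36041267), whose substrate is not settled, was at 2.73 and 2.32 TPM in WT, 5.25 and 6.6 in CypD KO, 4.23 and 2.81 in Control and 5.54 and 4.97 in the libraries labelled CypD OE. WT was lowest, and CypD KO and CypD OE were highest and overlapped. The log2 fold change was 0.97 (SE 0.19, limma adjusted p = 0.00501) in CypD KO and 0.83 (SE 0.19, limma adjusted p = 0.018) in CypD OE, each against WT, and the second call was lost without WT replicate 1, WT replicate 2, CypD OE replicate 1 or CypD OE replicate 2 (limma adjusted p up to 0.0906), and with no filter. *Slc25a46*, a protein of the outer membrane that acts in mitochondrial dynamics, was at 38.3 and 40.6 TPM in WT, 44.4 and 42.7 in CypD KO, 41.5 and 41.6 in Control and 46.5 and 49.6 in the libraries labelled CypD OE. CypD OE was highest, by 0.20 (limma adjusted p = 0.0257) against Control and 0.28 (limma adjusted p = 0.0111) against WT. The first call was lost without Control replicate 1, Control replicate 2 or CypD OE replicate 2 (limma adjusted p up to 0.13), and with only the 4 libraries compared, and the second without WT replicate 1 or CypD OE replicate 2 (limma adjusted p up to 0.0652). *Rangrf*, on the opposite strand at 3.5 to 10.03 TPM, overlaps 2702 bases of *Slc25a35*, an orphan carrier. *Slc25a35* rose from 1.67 and 1.36 TPM in Control to 2.97 and 2.79 TPM in CypD OE. Its call (0.63, limma adjusted p = 0.0167) was lost without Control replicate 2, CypD OE replicate 1 or CypD OE replicate 2 (limma adjusted p up to 0.0816). *Slc25a45* (5.31 to 6.92 TPM), *Slc25a47* (2 to 6.68 TPM) and *Slc25a53* (0.67 to 1.65 TPM) were called in no comparison.

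Proteins that insert carriers into the inner membrane were measured beside the family. Of 10 genes for the TIM22 complex, its chaperones and the receptor *Tomm70a*, limma called 0 higher and 5 lower in CypD KO against WT, with 1 higher and 5 lower at an unadjusted p under 0.05. The shares called higher and lower were 0% and 50% of the list, beside 30.1% and 18.4% of all genes. In Control against WT it called 0 higher and 2 lower (20% beside 12.1% of all genes), with 1 and 3 at an unadjusted p under 0.05. In the libraries labelled CypD OE against Control, 4 were higher and 2 lower (40% and 20%, beside 19% and 18.3% of all genes). *Timm8a1*, a small chaperone of the intermembrane space, was at 50.5 and 49.1 TPM in WT, 32.8 and 32.1 in CypD KO, 34.6 and 37.4 in Control and 45.6 and 47.6 in CypD OE. All 4 libraries of WT and CypD OE lay above all 4 of CypD KO and Control, as they did for *Slc25a10* and *Slc25a38*. *Tomm70a* was at 105 and 106 TPM in WT, 83.3 and 81.4 in CypD KO, 78.9 and 80.4 in Control and 96.8 and 97.9 in CypD OE.

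Genes with the carrier fold outside the rule were more abundant than the family itself, with a sum of 1858 to 2353 TPM over the 8 libraries. *Slc25a5*, an ADP/ATP translocase, was at 896 and 879 TPM in WT, 690 and 692 in CypD KO, 691 and 734 in Control and 902 and 855 in CypD OE. *Slc25a4*, another ADP/ATP translocase, was at 380 and 361, 368 and 383, 261 and 265 and 409 and 406 TPM in the same order. Control was lowest for *Slc25a4*, and CypD KO and Control were low for *Slc25a5*. *Slc25a3*, the phosphate carrier, was at 713 and 708 TPM in WT and 664 and 653 in CypD KO. It was at 514 and 570 TPM in Control and 598 and 558 in CypD OE. The 5 genes tested in this list were *Slc25a3*, *Slc25a4*, *Slc25a5*, *Mtch1* and *Mtch2*. In CypD KO against WT, limma called 0 higher and 2 lower (*Slc25a5* and *Mtch1*), the same counts as at an unadjusted p under 0.05. In CypD OE against Control, 2 were higher (*Slc25a4* and *Slc25a5*) and 2 lower (*Mtch1* and *Mtch2*). These were 40% lower beside 18.4% of all genes, and 40% in each direction beside 19% and 18.3%. In Control against WT, 1 was higher, *Mtch1*, and 3 were lower (20% and 60%, beside 12.1% and 12.1%). *Ucp3* was at 0 in every library, *Ucp1* at most at 0.06 TPM and *Ucp2* at most at 1.19 TPM. Of 14 other mitochondrial transporters, 1 was higher and 4 lower in CypD KO against WT (7.14% and 28.6%, beside 30.1% and 18.4% of all genes). Between CypD OE and Control, 7 were higher and 2 lower (50% and 14.3%, beside 19% and 18.3%). Between Control and WT, 1 was higher and 4 lower (7.14% and 28.6%, beside 12.1% and 12.1%).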

How the data were processed

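RNA from 8 libraries of B16F10 cells was sequenced as paired-end reads after removal of ribosomal RNA (KAPA RNA HyperPrep with RiboErase). Per the study's methods, the authors trimmed with Cutadapt 3.4, used STAR 2.7.8a with GRCm39 for alignment, and quantified genes by RSEM 1.3.1. The deposited table holds TPM per gene and library, already scaled for transcript length and library total. The authors' own tests used counts, normalized and tested with DESeq2 1.26.0, which were not analysed here. Depth in reads is therefore unknown, and only the relative depth could be read from low TPM values. Strand use in counting is not given in the sources used here.

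Libraries were grouped by their labels. TPM values were transformed to log2(TPM + 1), and the 13526 genes that reached 1 TPM in 2 or more of 8 libraries were fitted with limma 3.58.1 in R 4.3.3, with 1 mean per group over all 8 libraries, an intensity trend and Benjamini-Hochberg adjustment over all genes tested. With 2 libraries per group an exact permutation test of 1 gene cannot give a p below 0.333, so the limma fit, which pools the spread across genes, was used throughout. The script was tested on simulated data. Alternatives were a pseudocount of 0.1, no filter, a filter of 5 TPM, median-of-ratios scaling, a replicate block, no trend, the 4 libraries of a comparison alone, and each library left out.

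Genes named with statistics were carriers called without overlap of libraries, up to the 8 largest changes per direction in each comparison, the 10 highest by mean TPM, the EF-hand carriers and the mitoferrins. Levels of other carriers are given by role. Of the 44 carriers, 1 is included in counts and sums but is not reported here. The members, gene lists and markers were chosen with earlier results of these data known. Gene positions come from GENCODE vM39 (GRCm39). Of the 44 carriers, 29 overlap a gene on the opposite strand and 7 a gene on the same strand. Promoter windows came from RefSeq (GRCm38.p6) and were placed in GRCm39 by exact match. Protein sequences were not used here.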

Additional observations from a re-analysis of the deposited data

How the results depend on the processing

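With single libraries left out in turn, the carriers called in CypD KO against WT ranged from 7 to 11 higher and 3 to 6 lower. In CypD OE against Control they ranged from 5 to 10 and 1 to 3, in Control against WT from 1 to 1 and 4 to 7, in CypD OE against WT from 1 to 4 and 1 to 4, and in CypD KO against Control from 9 to 14 and 1 to 2. Counts moved by more than 1.5 times without CypD KO replicate 1 (7 higher and 3 lower in CypD KO against WT), CypD KO replicate 2 (3 lower) or WT replicate 2 (4 lower). In CypD OE against Control they did so without Control replicate 2 or CypD OE replicate 1 (5 higher and 1 lower with each left out) or CypD OE replicate 2 (5 higher). Between Control and WT this happened without WT replicate 1 or 2 (4 lower) or Control replicate 1 (5 lower), and in CypD KO against Control without CypD KO replicate 1 or Control replicate 2 (9 higher and 1 lower) or the other library of either group (1 lower). In CypD OE against WT the counts in both directions also moved by more than 1.5 times when single libraries were left out. A group with 1 library left was assumed to vary like the others.

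With no filter on low TPM, 4 carriers were lower in Control against WT and 3 in CypD OE against WT. With only the 4 libraries of a comparison, 4 were lower in Control against WT, and 3 were higher and 3 lower in CypD OE against WT. With a replicate block, 3 were lower in CypD OE against WT instead of 5, and all other counts stayed within 1.5 times the reported count. With 2 libraries per group the numbers do not establish pairing, and same-numbered deviations correlated at 0.11 in CypD KO and WT and between −0.03 and 0.00 in the other comparisons. The cause of these changes was not tested.

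Median-of-ratios scaling turned the sign of small differences that were not called. In CypD KO against WT these were *Slc25a28* (to −0.092), *Slc25a17* (−0.079) and *Slc25a45* (−0.069), in CypD KO against Control *Slc25a10* (−0.0025), *Slc25a33* (−0.046), *Slc25a46* (−0.019) and *Slc25a51* (−0.072), and in CypD OE against WT *Slc25a10* (−0.0020). Differences that were not called were followed with single libraries left out only for the 10 highest carriers, the EF-hand carriers and the mitoferrins. This was done in CypD KO against WT, CypD OE against Control and Control against WT, and some of these differences turned sign. In CypD KO against WT these ranged from −0.098 to 0.076 for *Slc25a37*, −0.0649 to 0.0697 for *Slc25a28* and −0.0484 to 0.086 for *Slc25a17*. In CypD OE against Control they ranged from −0.012 to 0.21 for *Slc25a25*, −0.0335 to 0.058 for *Slc25a51*, −0.012 to 0.064 for *Slc25a17* and −0.0346 to 0.063 for *Slc25a44*. Control against WT ranged from −0.0421 to 0.13 for *Slc25a37*, −0.0493 to 0.0198 for *Slc25a39* and −0.0537 to 0.18 for *Slc25a11*. Without read counts, the precision of low genes such as *Slc25a42* cannot be given from depth.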
